A study of Mus musculus with 8 samples.

Results

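The genes described here are those of the WNT signaling pathway at the cell surface and its core relay: every gene on the array whose symbol is Wnt, Fzd, Sfrp or Dkk followed by a digit, together with Lrp5, Lrp6, Ctnnb1, Axin1, Axin2, Lef1, Tcf7, Tcf7l1, Tcf7l2, Wif1 and Porcn. They were found through the RefSeq accession that the scanner files give for each probe, and each gene was represented by its probe with the brightest signal in the sample channel. This gave 48 of the 20656 named genes on the array, made up of 19 WNT ligands, 12 Frizzled and LRP receptors, 9 secreted antagonists, 7 intracellular components and transcription factors, and Porcn, the enzyme that attaches a lipid to WNT ligands. Of the 48 genes, 38 were bright enough to be tested.

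WNT proteins are secreted, lipid-modified ligands. They bind Frizzled receptors, alone or together with the co-receptors LRP5 and LRP6. In the canonical branch, binding halts the destruction complex built on axin, so that beta-catenin (Ctnnb1) accumulates and acts in the nucleus with the transcription factors of the TCF and LEF family. Other branches, among them planar cell polarity, use Frizzled receptors without beta-catenin. Secreted proteins of the SFRP, DKK and WIF families hold the signal back, SFRP and WIF1 by binding the ligand and most DKK proteins by binding the LRP co-receptor. In the adult hippocampus the pathway is known for its roles in the neurogenesis of the dentate gyrus and in synapse maintenance.

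Hippocampal RNA was taken from 8 adult male Muta Mouse animals, a transgenic strain that carries a lacZ reporter for the scoring of mutations, in both groups. The 4 BaP mice had been given benzo[a]pyrene (BaP), a polycyclic aromatic hydrocarbon and agonist of the aryl hydrocarbon receptor (AHR), by oral gavage in olive oil, as 3 daily doses of 70 mg per kg body weight. The 4 control mice had received the olive oil vehicle, and tissue was collected 24 h after the last dose in both groups. Each sample was labelled with Cy5 and hybridized to an Agilent array together with a universal mouse reference RNA labelled with Cy3, with no dye swap, so that each value below is the log2 ratio of a mouse to that common reference. A log2 ratio compares mice for 1 probe and does not rank different genes by their abundance.

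For 4 of the 8 arrays (control mice 3 and 4, BaP mice 3 and 4) the sample title and the source name disagreed on the treatment. Groups were taken from the titles, and values with the groups taken from the source names are given beside the main differences. By titles 3 probes passed the threshold used below and 5.29% of genes did not overlap between the groups, and by source names 0 probes passed and 2.64% of genes did not overlap. By the position numbers in the names of the scanner output, not by the sample labels, these 4 arrays lay in the second slide row. The other 4 arrays, with undisputed labels, lay in the first. Only the arrays of the second row change group by source names, so a difference alike in both rows cancels there. The median Cy5 signal was 108 to 174 on the 8 arrays over a background of 67 to 71, and 56.6% to 67.4% of 59305 gene spots were well above background. Markers of hippocampal neurons were present in all mice. The mean log2 ratio to the reference was 3.22 to 3.59 for 7 markers of CA1 pyramidal neurons and 2.18 to 3.23 for 7 markers of dentate granule neurons. Fewer cells of a type and less RNA per cell cannot be told apart in these whole-tissue samples.

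None of the 38 tested WNT genes passed the threshold of an adjusted p of 0.05 or less (limma with Benjamini-Hochberg adjustment over 32599 probes) together with a fold change of 1.5 or more. The background was 3 of 32599 probes, or 0.00920%, and 3 of 15086 genes by their brightest probe, or 0.0199%. At an unadjusted limma p of 0.05 or less there were 8 WNT genes (21.1%), against 9.47% of all tested genes. Of these, 6 had a higher mean in BaP mice (Wnt3, Wnt9a, Wnt9b, Wnt11, Fzd4 and Fzd6), where 5.08% of all genes did so, and 2 had a lower mean (Wnt4 and Sfrp2), where 4.38% did. The values of the 4 BaP mice and the 4 control mice did not overlap for 3 WNT genes (7.89%), against 5.29% of all genes. That count was 7 without control mouse 1, 8 without BaP mouse 1 and 5 without BaP mouse 4 (10%, 10.9% and 11.8% of all genes), 1 (Wnt3) in the log2 ratios the authors deposited (5.54% of all genes) and 0 with the groups taken from the source names (2.64%). A fold change of 1.5 or more in either direction was seen for 4 WNT genes, Wnt3, Wnt4, Fzd4 and Sfrp5 (10.5%), against 1.41% of all genes. The log2 fold change lay above 0 for 22 WNT genes and below 0 for 16, with a median of 0.0447, and 50.0% of all genes lay above 0, with a median of -0.000201. With median centring in place of loess normalization the split was 30 to 8, and the median was 0.242 for the WNT genes and 0.21 for all genes. The shift differed from gene to gene: Ctnnb1 went from -0.03 to 0.25 and Wnt3 from 0.67 to 0.64. By source names the split was 14 to 24.

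**Figure D1:**
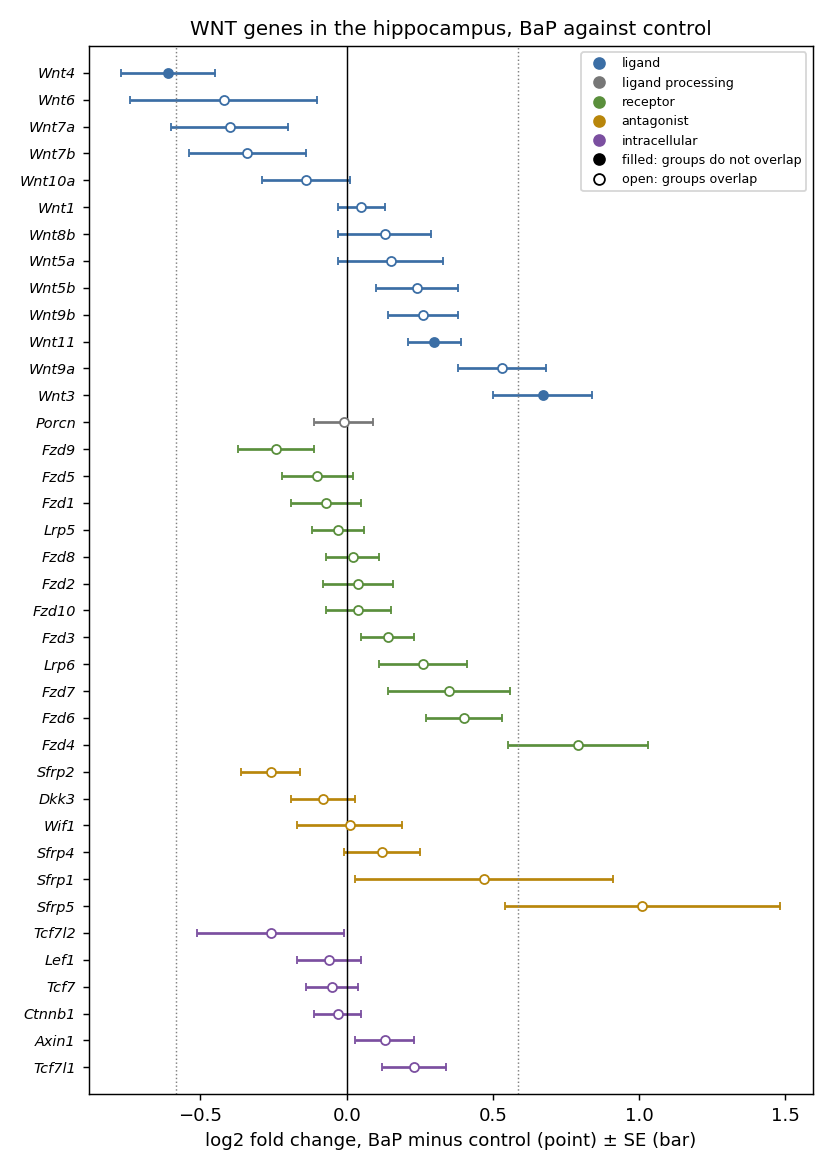
Log2 fold change (BaP minus control, 4 mice each) of the 38 tested WNT genes, ordered within each role, with bars for the limma standard error. Filled points mark the 3 genes whose groups did not overlap (Wnt3, Wnt11 and Wnt4), and dotted lines mark a fold change of 1.5. The widest bars are those of Sfrp5 and Sfrp1.

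The ligands held all 3 genes without overlap. Of the 19 ligand genes 13 were tested, 8 had a higher and 5 a lower mean in BaP mice, and the median difference was 0.13 log2 units. Groups did not overlap for 2 ligands that were higher in BaP mice (Wnt3 and Wnt11), where 2.72% of all genes lay so, and for 1 that was lower (Wnt4), where 2.57% did. The unadjusted p was 0.05 or less for 5 of the 13 ligands (38.5%, against 9.47% of all genes).

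Wnt3 encodes a ligand best known for the canonical branch and made in the hippocampus by astrocytes among other cells. Its log2 ratio to the reference was 1.07, 1.07, 0.90 and 1.05 in control mice 1 to 4 and 1.6, 1.83, 2.12 and 1.21 in BaP mice 1 to 4. The controls lay close together, and all BaP mice lay above them, BaP mouse 4 by the smallest margin and BaP mouse 3 by the largest. The mean was 1.02 ± 0.09 in control and 1.69 ± 0.39 in BaP mice (SD, n = 4 each), a log2 fold change of 0.67 (SE 0.17; 1.59-fold). The adjusted p was 0.468 (limma), and the exact 2-sided permutation p was 0.0286, the smallest that 4 against 4 allows. The log2 fold change was 0.64 within the first slide row and 0.69 within the second. With the groups taken from the source names it was -0.02.

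Wnt4, which acts in both canonical and planar polarity signaling and in kidney and gonad development, was the ligand with the largest difference in the other direction. Its log2 ratio was -0.24, 0.21, 0.16 and -0.03 in control mice 1 to 4 and -0.38, -0.99, -0.71 and -0.26 in BaP mice 1 to 4. All BaP mice lay below all controls, but BaP mouse 4 lay only just below control mouse 1. The log2 fold change was -0.61 (SE 0.16, 1.53-fold lower), with an adjusted p of 0.485 (limma) and an exact 2-sided permutation p of 0.0286. It was -0.67 within the first slide row, -0.55 within the second and -0.06 with the groups taken from the source names. A dimmer probe of Wnt4 gave -1.09, -0.86, -0.79 and -0.87 in control mice and -1.05, -1.73, -1.69 and -1.01 in BaP mice. On that probe BaP mice 2 and 3 were low, BaP mice 1 and 4 lay within the range of the controls, and the log2 fold change was -0.47 (SE 0.17, adjusted p = 0.527, limma; 0.05 by source names). On the brighter probe the groups overlapped in the log2 ratios the authors deposited and with median centring, at log2 fold changes of -0.66 and -0.31. The identity of the brighter probe is uncertain: the scanner files assign it to the Wnt4 transcript, and the study's probe annotation to another, unnamed transcript.

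The probe sequences through which these measurements were made are shown for the 4 genes with a fold change of 1.5 or more, as the first 30 of the 60 bases of each probe, 5′ to 3′, from the study's probe annotation.
Wnt3: atttaataatagtacatgagcgcattgtaa
Wnt4 (brighter probe): tatgaggctccttggcattgtgacatcccc
Fzd4: acacacgtaaggtatccagtggatttctct
Sfrp5: attattgctactgctgtggggccgctgatt
GC made up 35.0% of the 60 bases of the Wnt3 probe, 46.7% of the Wnt4 probe and 40.0% of the probes of Fzd4 and Sfrp5.

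Wnt11, a ligand of the non-canonical branches that guides cell movements in development, differed by less but with little spread. Its log2 ratio was -0.32, -0.56, -0.52 and -0.63 in control mice and -0.15, -0.26, -0.22 and -0.21 in BaP mice. All BaP mice lay above all controls and within a narrow range, and control mouse 1 lay closest to them. The groups differed by a log2 fold change of 0.30 (SE 0.09, adjusted p = 0.497, limma), and it was 0.23 in the first slide row, 0.36 in the second and -0.06 by source names. The Wnt11 groups overlapped without background correction, with median centring and in the deposited log2 ratios, at log2 fold changes of 0.27, 0.33 and 0.28. The Wnt11 probe was well above background on 7 of 8 arrays, the exception being a control.

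Wnt9a and Wnt9b encode closely related ligands, Wnt9a with roles in joints, liver and blood stem cells and Wnt9b in kidney and face. The log2 ratio of Wnt9a was 0.14, -0.21, -0.18 and -0.48 in control mice and 0.43, 0.55, 0.35 and 0.04 in BaP mice. Only BaP mouse 4 and control mouse 1 crossed, and the log2 fold change was 0.53 (SE 0.15, adjusted p = 0.489, limma; exact 2-sided permutation p = 0.0571), at 0.53 in each slide row and at about 0 by source names. The log2 ratio of Wnt9b was 0.07, 0.36, 0.14 and 0.01 in control mice and 0.62, 0.45, 0.39 and 0.16 in BaP mice. BaP mouse 4 lay inside the range of the controls, the other BaP mice lay above it, and the log2 fold change was 0.26 (SE 0.12, adjusted p = 0.570, limma; 0.06 by source names). BaP mouse 4 was thus the lowest BaP mouse for Wnt3, Wnt9a and Wnt9b.

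Wnt7a and Wnt7b encode ligands that neurons and glial progenitors secrete and that act on the brain vasculature and on synapses, and both lay above the reference RNA in all mice. The log2 ratio of Wnt7a was 2.15, 2.65, 2.99 and 2.97 in control mice and 2.60, 2.02, 2.04 and 2.51 in BaP mice. That of Wnt7b was 1.32, 1.82, 2.24 and 2.04 in control mice and 1.72, 1.52, 1.09 and 1.76 in BaP mice. Control mouse 1 was the lowest control for both genes, and the groups overlapped. The log2 fold change was -0.40 for Wnt7a (SE 0.20, adjusted p = 0.600, limma) and -0.34 for Wnt7b (SE 0.20, adjusted p = 0.648, limma). For both genes the difference lay mainly in the second slide row. It was -0.09 and -0.70 in the 2 rows for Wnt7a, and 0.05 and -0.72 for Wnt7b. By source names it was 0.31 for Wnt7a and 0.38 for Wnt7b. That of Wnt7b was -0.51 without control mouse 1 and -0.19 without BaP mouse 3.

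The other tested ligands were closer to 0 or varied more than they differed. Wnt6 had a log2 fold change of -0.42 with an SE of 0.32, and its values ran from -1.87 to -0.73 in control and from -2.14 to -0.76 in BaP mice. It was -0.73 without BaP mouse 4 and -0.24 without control mouse 3. Wnt5b stood at 0.24 (SE 0.14, 0.12 without control mouse 4, -0.10 by source names), Wnt5a at 0.15 (SE 0.18), Wnt8b at 0.13 (SE 0.16), Wnt10a at -0.14 (SE 0.15) and Wnt1 at 0.05 (SE 0.08), with adjusted p between 0.637 and 0.882 (limma). Wnt10b, Wnt16 and Wnt2 were well above background on 3 of 8 arrays, Wnt3a and Wnt8a on 1 and Wnt2b on none, and these 6 ligands were not tested. Porcn, which all ligands need for secretion, had a log2 ratio of 2.10 ± 0.12 in control and 2.09 ± 0.15 in BaP mice (SD, n = 4 each).

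**Figure D2:**
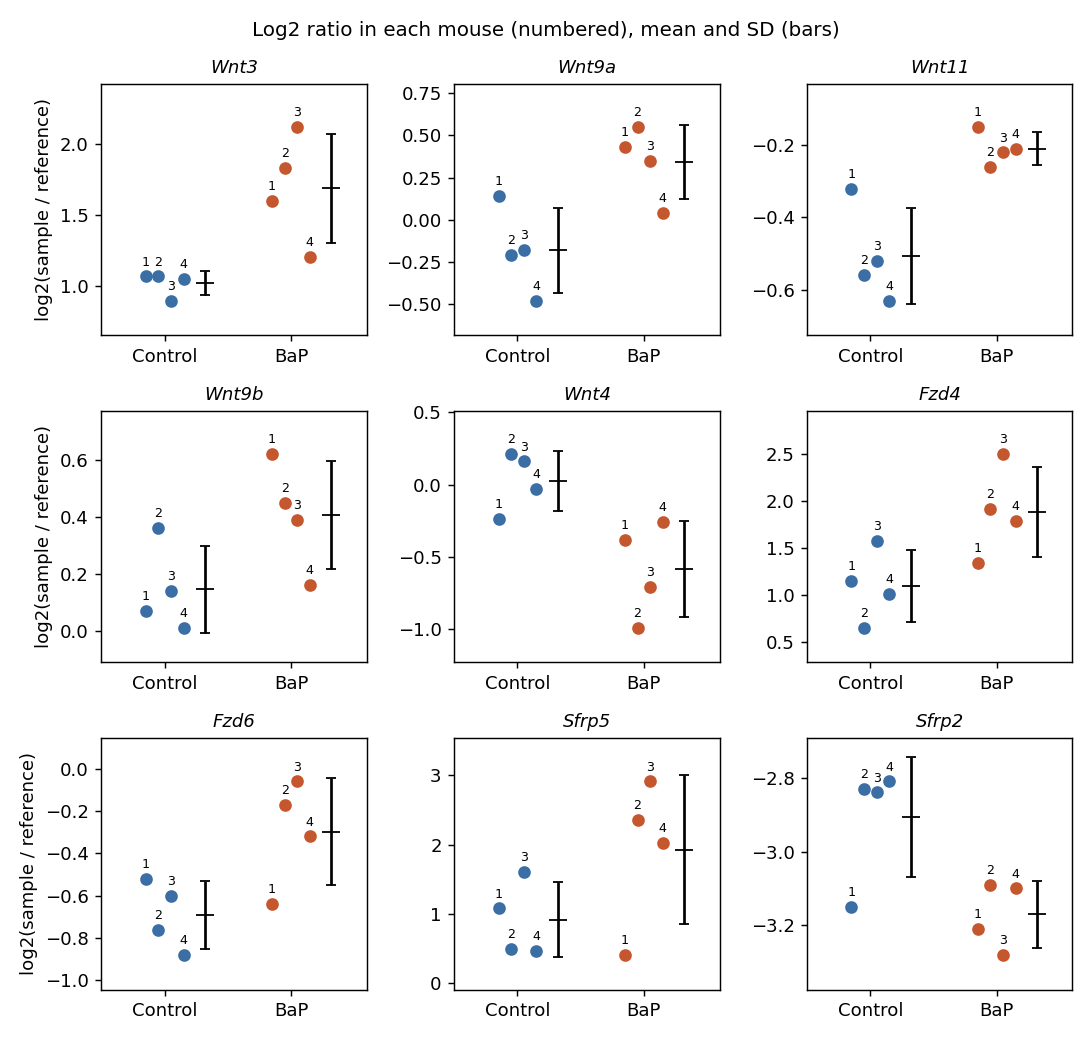
Log2 ratio of sample to reference RNA in each mouse (points numbered by mouse, control in blue, BaP in orange) for the 8 genes with an unadjusted p of 0.05 or less and for Sfrp5. Bars beside the points are the mean and SD of 4 mice. Wnt3, Wnt11 and Wnt4 show no overlap, and BaP mouse 1 lies among or below the controls for Fzd6 and Sfrp5.

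The windows of 250 bases upstream of the annotated starts of the 3 ligands without overlap are shown because BaP activates AHR, whose DNA-binding complex recognizes the core motif GCGTG. The sequences are from RefSeq (GRCm38.p6), and capitals mark GCGTG, or its reverse complement CACGC, and the TCF/LEF motifs CTTTGAT and CTTTGTT on either strand.
Wnt3, chr11:103773925-103774174, plus strand: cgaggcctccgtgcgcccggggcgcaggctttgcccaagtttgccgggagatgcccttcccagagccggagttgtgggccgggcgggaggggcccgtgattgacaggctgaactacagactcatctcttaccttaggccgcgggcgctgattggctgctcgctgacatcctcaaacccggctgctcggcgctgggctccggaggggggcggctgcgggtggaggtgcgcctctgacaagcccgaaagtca
Wnt4, chr4:137277385-137277634, plus strand: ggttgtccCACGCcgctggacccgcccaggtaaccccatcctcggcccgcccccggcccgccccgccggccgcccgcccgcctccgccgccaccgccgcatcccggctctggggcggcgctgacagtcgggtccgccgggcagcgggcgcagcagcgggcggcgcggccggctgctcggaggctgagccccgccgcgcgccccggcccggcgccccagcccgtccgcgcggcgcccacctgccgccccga
Wnt11, first start, chr7:98834862-98835111, plus strand: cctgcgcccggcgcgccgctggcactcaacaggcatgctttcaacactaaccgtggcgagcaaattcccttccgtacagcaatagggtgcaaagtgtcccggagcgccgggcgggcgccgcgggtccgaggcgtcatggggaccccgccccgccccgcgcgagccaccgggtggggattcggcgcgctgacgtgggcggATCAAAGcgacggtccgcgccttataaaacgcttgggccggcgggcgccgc
Wnt11, second start, chr7:98838595-98838844, plus strand: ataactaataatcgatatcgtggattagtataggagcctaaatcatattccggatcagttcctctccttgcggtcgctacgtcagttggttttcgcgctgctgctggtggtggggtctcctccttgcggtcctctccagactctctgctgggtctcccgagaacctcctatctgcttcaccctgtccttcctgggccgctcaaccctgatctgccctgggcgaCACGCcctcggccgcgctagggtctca
The Wnt3 window held none of these letters. The Wnt4 window and the window of the second Wnt11 start held 1 GCGTG match each, and that of the first Wnt11 start held 1 TCF/LEF match. The motifs do not overlap each other. Over the 41 such windows of 32 WNT genes, 19 held GCGTG (46.3%), against 28.2% of 32851 promoters of all genes, and 5 held a TCF/LEF motif (12.2%, against 8.06%). GC made up a median of 68.0% of the WNT windows and 52.4% of all windows. These matches describe the sequence and do not show binding.

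All 12 receptor genes were tested, 8 with a higher and 4 with a lower mean in BaP mice (median log2 fold change 0.0447). Groups overlapped for all 12. Fzd4 encodes the receptor for WNT ligands and norrin that retinal and brain vessels need. Its log2 ratio was 1.15, 0.65, 1.58 and 1.01 in control mice and 1.34, 1.92, 2.50 and 1.79 in BaP mice. BaP mice 2, 3 and 4 lay above all controls, and BaP mouse 1 lay below control mouse 3. BaP mice exceeded controls by 0.79 log2 units (SE 0.24; 1.73-fold), with an adjusted p of 0.499 (limma) and an exact 2-sided permutation p of 0.0571. It was 0.73 in the first slide row, 0.84 in the second and -0.06 by source names.

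Fzd6, a receptor of the planar polarity branch that orients hair follicles, had a log2 ratio of -0.52, -0.76, -0.60 and -0.88 in control mice and -0.64, -0.17, -0.06 and -0.32 in BaP mice. BaP mouse 1 lay among the controls and the other 3 lay above them. The log2 fold change was 0.40 (SE 0.13, adjusted p = 0.502, limma), at 0.24 and 0.56 in the 2 slide rows and -0.16 by source names. Fzd7 (0.35, SE 0.21) and the co-receptor Lrp6 (0.26, SE 0.15) had log2 fold changes in the same direction, with adjusted p of 0.648 and 0.622 (limma), and stood at -0.08 and -0.06 by source names. Fzd7 was at 0.18 without BaP mouse 3, and Lrp6 at 0.17 without BaP mouse 2 and 0.41 without BaP mouse 1. A dimmer Lrp6 probe had a log2 fold change of 0.17 (SE 0.14, adjusted p = 0.742, limma), with overlapping groups. The relations of Lrp6 to marker lists given below rest on the brighter probe only. Fzd9, a receptor found in the hippocampus that lay above the reference RNA in all mice (2.74 ± 0.24 in control and 2.50 ± 0.14 in BaP mice, SD, n = 4 each), had a log2 fold change of -0.24 (SE 0.13), -0.15 without control mouse 3 and 0.16 by source names. The remaining 7 receptors (Fzd1, Fzd2, Fzd3, Fzd5, Fzd8, Fzd10 and Lrp5) had log2 fold changes from -0.10 to 0.14, with adjusted p of at least 0.648 (limma).

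Of the 9 antagonist genes 6 were tested. Sfrp5 had the largest fold change of all WNT genes and also the largest spread. Its log2 ratio was 1.08, 0.50, 1.61 and 0.47 in control mice and 0.41, 2.35, 2.91 and 2.02 in BaP mice. BaP mouse 1 was the lowest of the 8 mice, and the other 3 BaP mice were the highest. The mean was 0.92 ± 0.54 in control and 1.92 ± 1.07 in BaP mice (SD, n = 4 each), a log2 fold change of 1.01 (SE 0.47; 2.01-fold) with an adjusted p of 0.582 (limma) and an exact 2-sided permutation p of 0.171. It was 1.51 without BaP mouse 1, 0.59 in the first slide row, 1.43 in the second and -0.42 by source names. Sfrp1, the closest relative of Sfrp5 among the antagonists, showed the same order of mice in its log2 ratio. It had 0.99, 0.45, 1.33 and 0.30 in control and -0.19, 1.46, 2.22 and 1.43 in BaP mice, with a log2 fold change of 0.47 (SE 0.44, adjusted p = 0.767, limma). It was 0.14 without BaP mouse 3, 0.94 without BaP mouse 1 and -0.55 by source names. Relative to the array median (log2), the reference channel of Sfrp1 lay at -1.08 for BaP mouse 1 and at -2.07 to -1.69 on the other arrays. In the Cy5 channel BaP mouse 1 (-1.4) lay above control mouse 2 (-1.5), and BaP mouse 2 (-0.57) lay below BaP mouse 4 (-0.52). The order of mice thus differed in that channel.

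Sfrp2 lay far below the reference in all mice, at -3.15, -2.83, -2.84 and -2.81 in control and -3.21, -3.09, -3.28 and -3.10 in BaP mice. Control mouse 1 lay among the BaP mice and the other controls lay above them. The log2 fold change was -0.26 (SE 0.10, adjusted p = 0.528, limma), and it was -0.07 in the Cy5 channel alone and 0.10 by source names. Dkk3, a divergent DKK protein that is abundant in hippocampal neurons, lay far above the reference RNA (5.17 ± 0.08 in control and 5.09 ± 0.20 in BaP mice, SD, n = 4 each). Sfrp4 stood at 0.12 (SE 0.13) and Wif1 at 0.01 (SE 0.18). Dkk1 and Dkk4 were not well above background on any array and Dkk2 on 1 of 8, so that the DKK proteins that bind LRP co-receptors were not tested.

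Of the intracellular components, Axin2, the usual readout gene of canonical signaling, was well above background on 3 of 8 arrays (2 control and 1 BaP), too dim for the filter on signal. By the brightest probe of each gene, no tested component had an unadjusted p of 0.05 or less or a fold change of 1.5, and a second probe of Tcf7l2 had an unadjusted p of 0.03 (limma). Ctnnb1, which encodes beta-catenin, had a log2 ratio of 0.30, 0.36, 0.48 and 0.34 in control mice and 0.32, 0.26, 0.39 and 0.38 in BaP mice. The groups interleaved, at a log2 fold change of -0.03 (SE 0.08, adjusted p = 0.931, limma), or 0.25 with median centring, where the median of all genes was 0.21. Lef1 had -1.08, -1.36, -1.32 and -1.35 in control mice and -1.62, -1.24, -1.22 and -1.29 in BaP mice, where control mouse 1 stood high and BaP mouse 1 stood low. Its log2 fold change was -0.06 (SE 0.11, adjusted p = 0.892, limma).

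Tcf7l2, the TCF family member with strong expression in the thalamus, had -1.06, -0.87, -1.34 and -0.56 in control mice and -1.59, -1.52, -1.34 and -0.44 in BaP mice. The groups overlapped, BaP mouse 4 was the highest of the 8, and the log2 fold change was -0.26 (SE 0.25, adjusted p = 0.769, limma). It was -0.53 without BaP mouse 4, -0.13 without control mouse 4 and -0.76 in the Cy5 channel alone. The array of BaP mouse 4 stood apart for this probe in both channels. Relative to the array median (log2), its reference channel lay at -1.35, and at 0.80 to 1.05 on the other 7 arrays, and its Cy5 channel lay at -1.85, and at -0.97 to -0.02 on the others. On this scale the Cy5 difference was -0.79, and -0.55 without BaP mouse 4. A second Tcf7l2 probe had -0.87, -0.85, -0.89 and -0.85 in control mice and -1.08, -1.07, -1.06 and -0.97 in BaP mice. On that probe all BaP mice lay below all controls, with a log2 fold change of -0.18 (SE 0.07, adjusted p = 0.538, limma; exact 2-sided permutation p = 0.0286), so the probes of this gene differ in their spread. By source names the second probe stood at -0.04. Tcf7l1 stood at 0.23 (SE 0.11), Axin1 at 0.13 (SE 0.10) and Tcf7 at -0.05 (SE 0.09).

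Several WNT genes followed the markers of other tissue parts from mouse to mouse. Each of the 38 genes was set against the mean log2 ratio of each of 13 lists of cell type markers over the 8 mice, 494 relations in all. By Pearson's r 3 relations had an adjusted exact permutation p of 0.05 or less, and by Spearman's rho these 3 and Fzd7 with the endothelium list did. The choroid plexus list (18 genes, among them Ttr and Kl) had a mean of 2.43, 1.49, 2.82 and 1.17 in control mice and 0.78, 3.46, 3.91 and 2.94 in BaP mice. BaP mouse 1 was lowest, and the other BaP mice were highest. Of its 18 genes 17 had a log2 fold change above 0 and none passed the threshold, and the exact 2-sided permutation p of the list mean was 0.343. Sfrp5 ran with this list at r = 0.97 and rho = 1 (exact 2-sided permutation p = 2.48e-05 and 4.96e-05, adjusted p = 0.00613 and 0.0123 over the 494 relations). Sfrp1 ran with it at r = 0.983 and rho = 1, with the same exact permutation p values. Both relations are those of log2 ratios, and the reference channel of Sfrp1 stood apart in BaP mouse 1. Without control mouse 4 and BaP mouse 1, the mice farthest from the median of the list, r was 0.983 for Sfrp5 and 0.966 for Sfrp1. Over the deviations from the group means, r was 0.99 for Sfrp5 and 0.983 for Sfrp1. No correlation was computed within a slide row, which holds 4 mice.

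**Figure D3:**
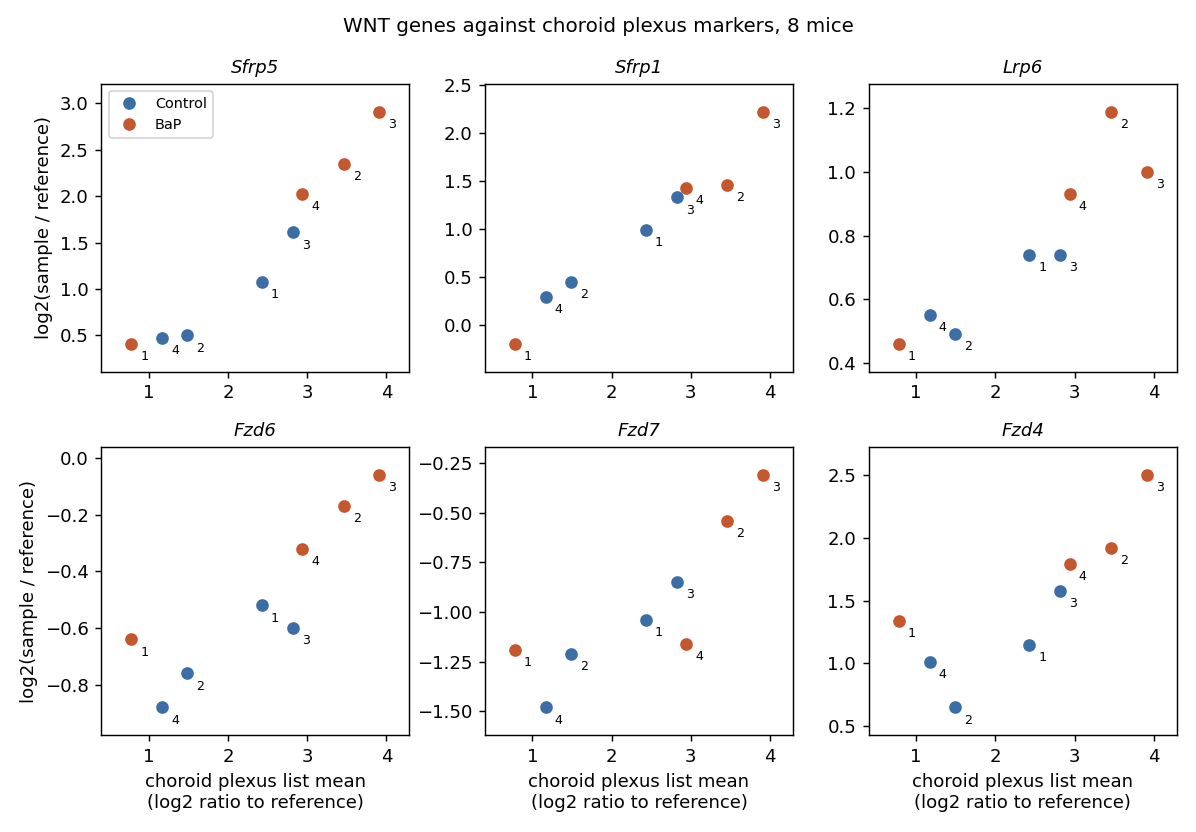
Log2 ratio of 6 WNT genes against the mean log2 ratio of 18 choroid plexus markers in the same mouse (points numbered by mouse, control in blue, BaP in orange). Sfrp5 and Sfrp1 rank the 8 mice as the list does, and Lrp6, Fzd6, Fzd7 and Fzd4 follow it less closely.

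A further 4 receptors had r of 0.8 or more with the choroid plexus list: Lrp6 (0.922), Fzd6 (0.885), Fzd7 (0.859) and Fzd4 (0.823). Their exact 2-sided permutation p values were 0.00246 to 0.0122, and their adjusted p values were 0.137 to 0.204. In all, 6 of the 38 WNT genes (15.8%) and 4.93% of 14815 other genes reached this r, a limit set after the values were seen. The same 6 genes reached it with the endothelium list, whose mean was 1.11 to 1.42 in control and 1.26 to 1.49 in BaP mice and with which 4.51% of other genes did so. Fzd7 had r = 0.897 and rho = 0.976 with it (exact 2-sided permutation p = 0.00216 and 0.000397, adjusted p = 0.137 and 0.049), and r = 0.809 without control mouse 4 and BaP mouse 3. Fzd7 also had r = 0.91 with the ependymal list and 0.813 with the dentate granule neuron list. With the list of Cajal-Retzius cell markers r was 0.855 for Fzd7 and 0.826 for Fzd6. The adjusted exact permutation p of these further relations was 0.137 to 0.204. The part of the choroid plexus markers in the group differences of Sfrp5, Fzd4 and Fzd6 was not tested. Wnt3, Wnt4, Wnt11, Wnt9a and Wnt9b had r of -0.557 to 0.468 with this list, with exact 2-sided permutation p values of 0.154 to 0.916. Without control mouse 4 and BaP mouse 1, r was 0.779 for Wnt3, 0.76 for Wnt9a, 0.749 for Wnt11, 0.297 for Wnt9b and -0.799 for Wnt4.

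The remaining relation joined Fzd1 to the meningeal fibroblast list (12 genes, among them Col1a1 and Dcn), at r = 0.942 and rho = 0.976 (exact 2-sided permutation p = 7.44e-05 and 0.000397, adjusted p = 0.0123 and 0.049). Without control mouse 4 and BaP mouse 1, r was 0.832. Wnt5a (r = 0.853) and Wnt6 (r = 0.851) followed the same list, with an adjusted exact permutation p of 0.167 and 0.177. This list had a mean of -1.43 to -0.04 in control and -1.38 to -0.14 in BaP mice (group means -0.65 and -0.73, exact 2-sided permutation p = 0.771). The erythroid list was lower in all BaP mice (2.89 to 3.20) than in any control (3.81 to 4.01). Of its 6 tested genes, 2 passed the threshold (0.0199% of all genes did) and 5 did not overlap between the groups (5.29% of all genes). Wnt3 had r = -0.839 and Wnt4 r = 0.809 with the erythroid list over the 8 mice, and -0.385 and 0.302 over the deviations from the group means. Wnt9a had r = -0.819 and Wnt11 r = -0.805 with the same list, and -0.359 and 0.345 over the deviations. Wnt9b had r = -0.767 (-0.773 over the deviations). Wnt4 had r = -0.927 with the oligodendrocyte list (exact 2-sided permutation p = 0.00117, adjusted p = 0.137), which was 3.92 to 4.19 in control and 4.04 to 4.43 in BaP mice. Wnt7a had r = -0.887 with this list (exact 2-sided permutation p = 0.00146, adjusted p = 0.137) and -0.838 over the deviations, and Wnt7b had r = -0.765 (-0.682 over the deviations). Wnt3 had r = 0.841 and rho = 0.905 with the dentate granule neuron list (exact 2-sided permutation p = 0.00712 and 0.00456, adjusted p = 0.167 and 0.15), and r = 0.738 over the deviations from the group means. This list was 2.18 to 2.84 in control and 2.56 to 3.23 in BaP mice, and Wnt9a had r = 0.818 with it (0.685 over the deviations), Wnt7a -0.778 (-0.67) and Wnt7b -0.705 (-0.593). Wnt3 had r = 0.814 with the ependymal list (0.863 over the deviations), which was 1.52 to 2.15 in control and 1.66 to 2.87 in BaP mice. The adjusted exact permutation p was 0.204 for Wnt9a with the dentate list and for Wnt3 with the ependymal list. The Cajal-Retzius list was -0.09 to 0.2 in control and 0.02 to 0.47 in BaP mice. With it r was 0.805 for Wnt3, -0.853 for Wnt4, -0.832 for Wnt7a and -0.8 for Wnt7b (adjusted exact permutation p of 0.181 to 0.208). Over the deviations r was 0.797, -0.869, -0.773 and -0.739. Without BaP mice 2 and 3, farthest from the median of that list, r was -0.0236, -0.556, -0.626 and -0.635. The part of these lists in the differences of Wnt3, Wnt4, Wnt7a, Wnt7b, Wnt9a, Wnt9b and Wnt11 was not tested.

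**Figure D4:**
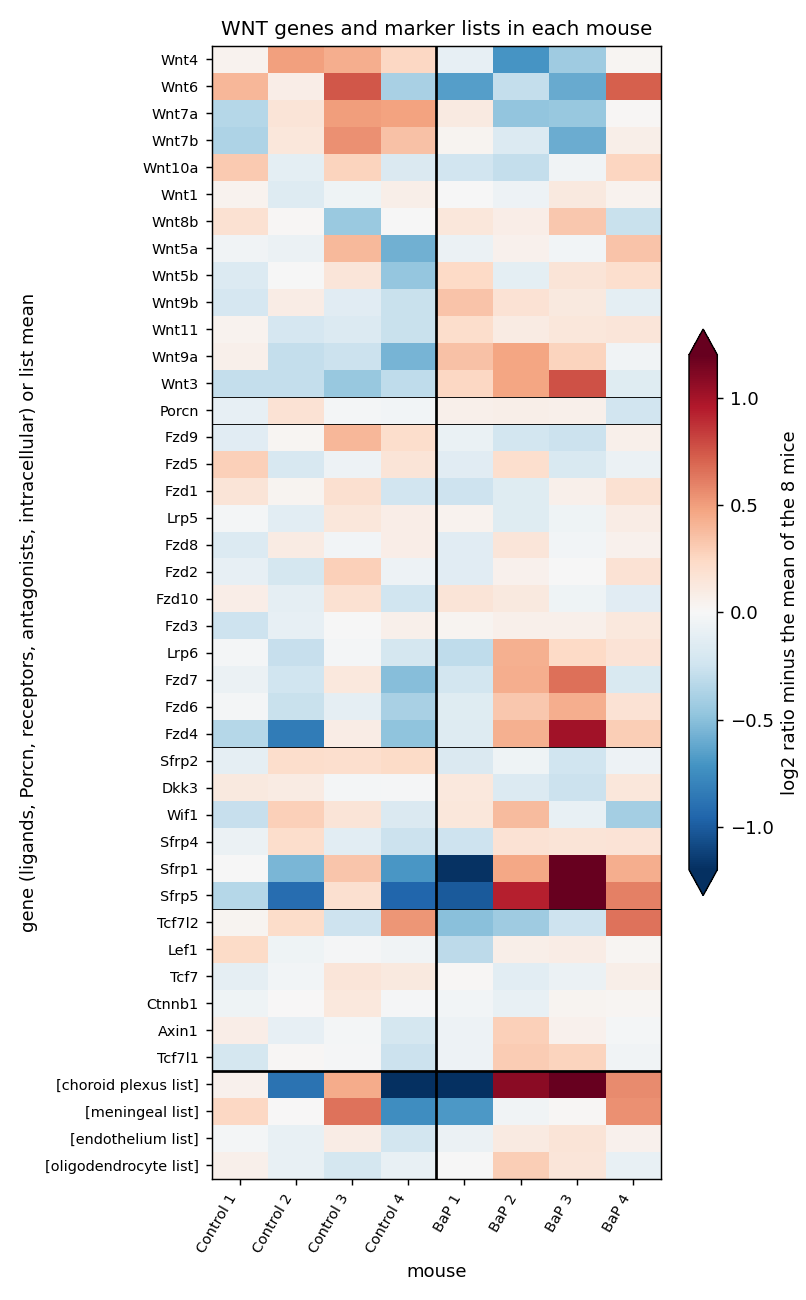
Log2 ratio of each tested WNT gene in each mouse, minus the mean of the 8 mice, with 4 marker list means in the lowest rows. The colour scale ends at 1.2 log2 units either way. BaP mice 2 and 3 stand high, and BaP mouse 1 and control mouse 4 low, for Sfrp5, Sfrp1 and the choroid plexus list.

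Other genes of the pathway were taken from a list of 100, of which 93 were tested. None passed the threshold. By their sign 42 had a higher and 51 a lower mean in BaP mice, and the median of their log2 fold changes was -0.0177. The unadjusted p was 0.05 or less for 8 of them (8.6%, against 9.47% of all genes), 1 higher and 7 lower in BaP mice. Groups did not overlap for 3 (3.23%, against 5.29%), which are named here after their values were seen. Gpc4, a glypican that binds WNT ligands at the cell surface, had -0.28, -0.32, -0.18 and -0.11 in control mice and 0.01, 0.32, 0.41 and 0.08 in BaP mice, at a log2 fold change of 0.43 (SE 0.11, adjusted p = 0.468, limma). Gpc3, a glypican as well, had 1.67, 1.62, 2.10 and 1.80 in control mice and 1.43, 1.21, 1.5 and 1.46 in BaP mice, at -0.40 (SE 0.12, adjusted p = 0.497, limma). Btrc, the ubiquitin ligase subunit that marks beta-catenin for degradation, had 3.77, 3.70 and 3.99 in control mice 2 to 4, no value for control mouse 1, and 3.58, 3.48, 3.49 and 3.63 in BaP mice, at -0.28 (SE 0.10, adjusted p = 0.515, limma). Of 13 tested target genes of the canonical branch, 7 had a log2 fold change above 0 and 6 below 0, with a median of 0.0325. The unadjusted p (limma) was at most 0.05 for 3 of them (23.1%, against 9.47% of all genes). These 3 were lower in BaP mice, where 4.38% of all genes had such a p and a lower mean. They were Jun at -0.44 (SE 0.14), Ccnd1 at -0.29 (SE 0.11) and Fosl1 at -0.24 (SE 0.09), with adjusted p of 0.499 to 0.533 (limma). In the other 6 groups of the list, of 4 to 21 tested genes each, the share with such a p was 0% to 11.8%. The group of target genes was singled out after its values were seen.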

How the data were processed

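RNA of 8 hippocampi was hybridized to 2-color Agilent arrays (Cy5 sample, Cy3 reference). The authors deposited scanner output with spot intensity in both channels (Agilent Feature Extraction, version 11.0.1.1 per the file headers), not normalized, and a table of normalized log2 ratios. Their LOWESS normalization was made in R, and their analysis of variance results were not used. Set against the loess ratios computed here, the log2 ratios the authors deposited had r of 0.998 to 0.999 on each array, a slope of 0.992 to 1.02 and column medians of -0.0457 to -0.0343. They therefore run as Cy5 over Cy3 on a log2 scale.

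From the scanner files, spot medians were background-corrected (normexp, offset 50), control spots were then left out, outlier spots were set to missing, arrays were normalized by loess, and spots of 1 probe were averaged (limma 3.58.1, R 4.3.3). A probe was tested if its Cy5 signal stood well above background on 4 or more of the 8 arrays, with at least 2 values in each group, using lmFit and eBayes with Benjamini-Hochberg adjustment. Of 55681 probes 27229 were named through RefSeq accessions, for 20656 genes. For a gene with several probes the brightest in Cy5 stands. Outlier spots numbered 1483 on the array of control mouse 1 and 310 to 371 on the others. The number of arrays limits the precision. The exact permutation test ran over all 70 assignments of 4 and 4 mice, and its smallest p is 0.0286. Correlations used all orders of the 8 mice. The scripts were tested on simulated data.

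Values for each mouse are given for genes without overlap, with an unadjusted p of 0.05 or less or a fold change of 1.5 or more, and for Fzd4, Wnt3, Wnt4, Sfrp5, Wnt7a, Wnt7b, Lef1, Tcf7l2 and Ctnnb1. Axin2 fell under the same rule and had no tested probe. Those of Sfrp1 and of 3 other pathway genes, and the marker lists described, were chosen after their values were seen. The group of canonical target genes, and Jun, Ccnd1 and Fosl1 in it, were singled out in the same way. The genes, the lists of other pathway genes and the marker lists were chosen with earlier results of these data known. Alternatives covered background, normalization, filters, outlier spots, variance model, probe choice, slide row, replicate number, labels and each mouse left out.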

Additional observations from a re-analysis of the deposited data

Results flagged for a closer look

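Of 104 groups of 4 mice examined (the control and the BaP mice for each tested WNT gene, each marker list and the list of other pathway genes), 6 held 1 mouse far from the other 3, where about 5.2 are expected at 1 in 20. The gap to the nearest mouse, as a share of the range of the group, was 0.86 for Lef1 in control mouse 1 (-1.08, the others -1.36 to -1.32) and 0.838 for Lef1 in BaP mouse 1 (-1.62, the others -1.29 to -1.22). It was 0.899 for Sfrp2 in control mouse 1 (-3.15, the others -2.84 to -2.81), the array with the most outlier spots. None of the spots of this Sfrp2 probe was an outlier spot, and the log2 fold change was -0.26 with outlier spots kept, as without them. It was 0.941 for Sfrp4 in BaP mouse 1 (-0.48, the others -0.08 to -0.06) and 0.947 for Porcn in BaP mouse 4 (1.87, the others 2.16 to 2.17). For Wnt3 the gap was 0.848 in control mouse 3 (0.90, the others 1.05 to 1.07), the control farthest below the BaP mice.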

How the results depend on the processing

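No WNT gene and no other gene of the pathway passed the threshold under any of the 26 alternatives run. With the groups taken from the source names, the values turned to -0.06 for Fzd4, -0.16 for Fzd6, 0.10 for Sfrp2, -0.42 for Sfrp5, -0.06 for Wnt11, -0.02 for Wnt3, 0.31 for Wnt7a, 0.38 for Wnt7b and -0.00 for Wnt9a. The source names exchange the groups in slide row 2 only, so these values follow from the 2 row differences and are no separate result. With median centring the values turned to 0.25 for Ctnnb1, 0.20 for Lef1 and 0.01 for Tcf7l2, and the median of the WNT genes was 0.242. In slide row 1, which also holds the arrays with undisputed labels, Wnt7b was 0.05, and in slide row 2 Lef1 was 0.08 and Tcf7l2 0.06. Without control mouse 1 and without BaP mouse 1 Lef1 was 0.01 and 0.03 (-0.10 to 0.03 with each mouse left out), and without control mouse 3 Ctnnb1 was 0.01 (-0.06 to 0.01). The count of WNT genes without overlap was 8 in the Cy5 channel alone (4.98% of all genes), 1 in the deposited log2 ratios (5.54%), 12 and 21 in slide rows 1 and 2 with 2 mice a group (39.5% and 38.6% of all genes), 0 by source names (2.64%), 3 with median centring (Fzd3, Fzd4 and Wnt3, where 10.2% of all genes did not overlap), and 3 to 8 with each mouse left out. The count of all probes past the threshold, 3 in the values reported, was 6 in Cy5 alone, 5 without the filter on dim probes, 0 by a gene-wise F test, 5 with the slide row as a block, 0 within either slide row or by source names, and 1 to 3 with each mouse left out. The cause of these differences was not tested. Quantile scaling of average intensities after loess left the ratios unchanged.

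The replicate numbers did not pair the mice: the correlation of deviations of same-numbered mice was -0.354, 0.0313, -0.00717 and -0.00666. Among the controls, no BaP mouse correlated best with the one of its own number. With the replicate block 3 probes and 0 WNT genes passed, as without it. Axin2, Dkk1, Dkk2, Dkk4 and 6 ligands were too dim for the filter. In the fit without it none passed (adjusted p of 0.557 to 0.973, limma), and Wnt2 was the 1 gene among them without overlap (log2 fold change 0.34). The median of all 48 genes was 0.0135.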
